A study of Homo sapiens with 8 samples.

Results

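Histone genes of the replication-dependent clusters and histone genes that stand alone in the genome were followed in 8 RNA-seq libraries of the human lung adenocarcinoma line PC9. The genes were taken from a list of 38 symbols, 29 of cluster genes and 9 of solitary genes. Of these, 28 were matched to 1 of the 63677 Ensembl gene IDs of the count files, 19 in the clusters and all 9 outside them. The other 10 (H2AC4, H2AC8, H2AC16, H2BC7, H2BC8, H2BC9, H2BC14, H2BC17, H3C2 and H3C8) were not analysed here. H2BU1 is listed by RefSeq under a newer symbol and was matched through its synonym.

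The series asks which genes differ between PC9-BrM3, a subline used to study brain metastasis, and the parental line, and which genes change in PC9-BrM3 when HSF1, the main transcription factor of the heat shock response, is depleted. There were 4 groups of 2 libraries. PC9 parental and PC9-BrM3 cells carried no hairpin and were grown for 48 h before RNA was taken. The shNTC and shHSF1 groups were PC9-BrM3 cells that carried a lentiviral Tet-pLKO vector, with a non-target hairpin or with HSF1 hairpin clone 7480. Both were selected with puromycin for 5 days and given 500 ng/mL doxycycline for 48 h, so the control shares virus, puromycin and doxycycline with the knockdown. With 1 hairpin against HSF1, its off-target effects and HSF1 loss cannot be told apart. The file headers place the libraries without a hairpin on lane 7 and those with one on lane 1, so each comparison was made within a lane.

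Dividing cells need histones in step with DNA synthesis, and the clustered genes, most of them on chromosome 6, supply the bulk of H1, H2A, H2B, H3 and H4 in S phase. Their usual mRNAs have no introns and no poly(A) tail: they end just after a short stem-loop that the stem-loop binding protein SLBP holds, and they are lost when replication stops. Some cluster genes also give transcripts that run past the stem-loop to a poly(A) signal, a form known from differentiating and non-dividing cells. Solitary genes mostly encode replacement histones, which are polyadenylated and made throughout the cell cycle, though H2AX keeps a stem-loop. Libraries made by poly(A) selection mostly miss the stem-loop form. The labels do not say whether poly(A) RNA was selected, so the share of each form in these counts cannot be told apart.

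The stem-loop marks the usual end of a cluster mRNA, and what a transcript model holds beyond it bears on what was counted. GENCODE v29 transcripts (GRCh38) of the matched cluster genes and H2AX, but not of the other solitary genes, were searched for a stem-loop of 16 bases. With G opposite T allowed as a pair, stem-loops were found in 11 genes. They are shown for 5 genes described below, read 5′ to 3′ as DNA with the stem-loop in capitals and the 5 bases before it in lower case.
H2BC21: ccaaaGGCTCTTTTCAGAGCC
H2BC5: ccaaaGGCTCTTTTAAGAGCC
H2AC11: ccaacGGCTCTTTTCAGGGCC
H4C8: ccaaaGGCCCTTTTCAGGGCC
H2AX: acaaaGGCCCTTTTAAGGGCC
The H2BC21 stem-loop was found letter for letter in H2AC6, H2AC18, H2BC13 and H2BU1, and the H2BC5 stem-loop in H2BC4. The annotated H2BC21 transcript goes on for 1729 bases after it, H2AC11 for 1761, H4C8 for up to 1655 and H2AC6 for up to 1128. H2AX, a solitary gene, keeps a stem-loop and has a transcript that goes on for 1044 bases. A missing match says only that these letters are not in the annotated transcript, which for several H1 genes stops near the coding end.

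Library totals ran from 33550140 to 56715336 counts. Epithelial markers were high (EPCAM 359 to 568 CPM, which are counts scaled to a common library size), the lung lineage factor NKX2-1 was at most 0.20 CPM, and PTPRC, COL1A2, PDGFRB, GFAP, AQP4, RBFOX3 and SNAP25 were at most 0.39 CPM. CD68 was at most 0.79 CPM. The surfactant gene SFTPB was at 11.5 and 15.6 CPM in PC9 parental and at most 2.65 CPM elsewhere, and was called lower in both comparisons (log2 -3.33 with HSF1 depleted, lost without shNTC replicate 2 or shHSF1 replicate 1, and -2.69 in PC9-BrM3 against PC9 parental). Of the endothelial pair, PECAM1 had 0 counts while CDH5 was at 18.7 to 55.3 CPM and was called lower in both (log2 -0.91 and -0.87, the second lost without either PC9 parental replicate). With HSF1 depleted, 3 of the 7 tested epithelial markers were called higher and 1, SFTPB, lower. The 3 were KRT8 (log2 0.63), KRT18 (0.70) and CDH1 (0.41). The part of these marker changes in the histone values was not tested. HSF1 checked the labels: it was at 178 and 184 CPM in shNTC and 15.6 and 13.5 CPM in shHSF1, a log2 change of -3.61 ± 0.08 (SE; adjusted p = 2.66e-08). In the libraries without a hairpin HSF1 lay between 46.9 and 54.6 CPM, below the shNTC level. The 2 PC9-BrM3 libraries differed more than any other pair: over histone genes above 1 CPM the median gap between replicates was 0.44 on the log2 scale, against 0.19 in PC9 parental, 0.15 in shNTC and 0.08 in shHSF1. The labels do not say whether replicates came from separate cultures, and the p-values measure only the spread between these libraries.

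Per kilobase of exon, solitary genes led. H2AZ1, which encodes the variant H2A.Z.1, stood at 132.7 CPM per kb on average over the 8 libraries, H3-3B, one of 2 genes for the replacement histone H3.3, at 42.2 and H2AZ2 at 36.1. H2BC12 was the highest cluster gene (32.7 CPM per kb), followed by H1-2 (13.5), H2BC5 (7.76) and H2AC6 (4.31). The remaining cluster genes were each under 3 CPM per kb. This order depends on the exon length of the gene models. MACROH2A1, with group means of 190.8 to 252.1 CPM and 17730 bases of exon, came to 12.25 CPM per kb. H2AC18 and H4C14, the latter placed on a patch contig in the files, had 0 counts in all libraries, which allows up to 0.0529 to 0.0894 CPM by library (3 counts, counting error only), and MACROH2A2 had 1 count in all. H2AC18 has a near-identical partner gene, cluster genes of a class resemble each other, and H3-3A, H3-3B and H2AZ1 have processed copies, so reads shared between copies may be lost or misplaced.

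With HSF1 depleted, the counted cluster histone genes rose about 3-fold as a sum, while the sum over solitary genes differed by less than its gap between shNTC replicates. The 19 cluster genes summed to 42.0 and 46.5 CPM in shNTC and to 135 and 140 CPM in shHSF1, a ratio of 3.10 between the means. The 9 solitary genes summed to 1227 and 1184 CPM in shNTC and 1181 and 1196 CPM in shHSF1, a ratio of 0.985. Much of the cluster sum was H2BC12, which gave 39.1% and 43.2% of it in shNTC and 47.4% and 46.4% in shHSF1.

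Of the 28 matched genes 21 had enough counts to be tested, and 10 rose, 2 fell and 9 were not called at an adjusted p of 0.05. Among all 16840 genes tested 45.7% were called, 22.2% higher and 23.5% lower. The 13 tested cluster genes held 8 that rose and 1 that fell, with a median log2 change of 1.34 against 0.01 over all tested genes. The 8 tested solitary genes held 2 that rose and 1 that fell, with a median of 0.05. By class, all 5 tested H2B genes of the list rose, with a median log2 change of 2.14. Outside the list, H2BC15 (log2 -0.07 ± 0.41, adjusted p = 0.904) and H2BC18 (log2 -0.73 ± 0.44, adjusted p = 0.212), named here after their values were seen, were tested and not called.

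**Figure D1:**
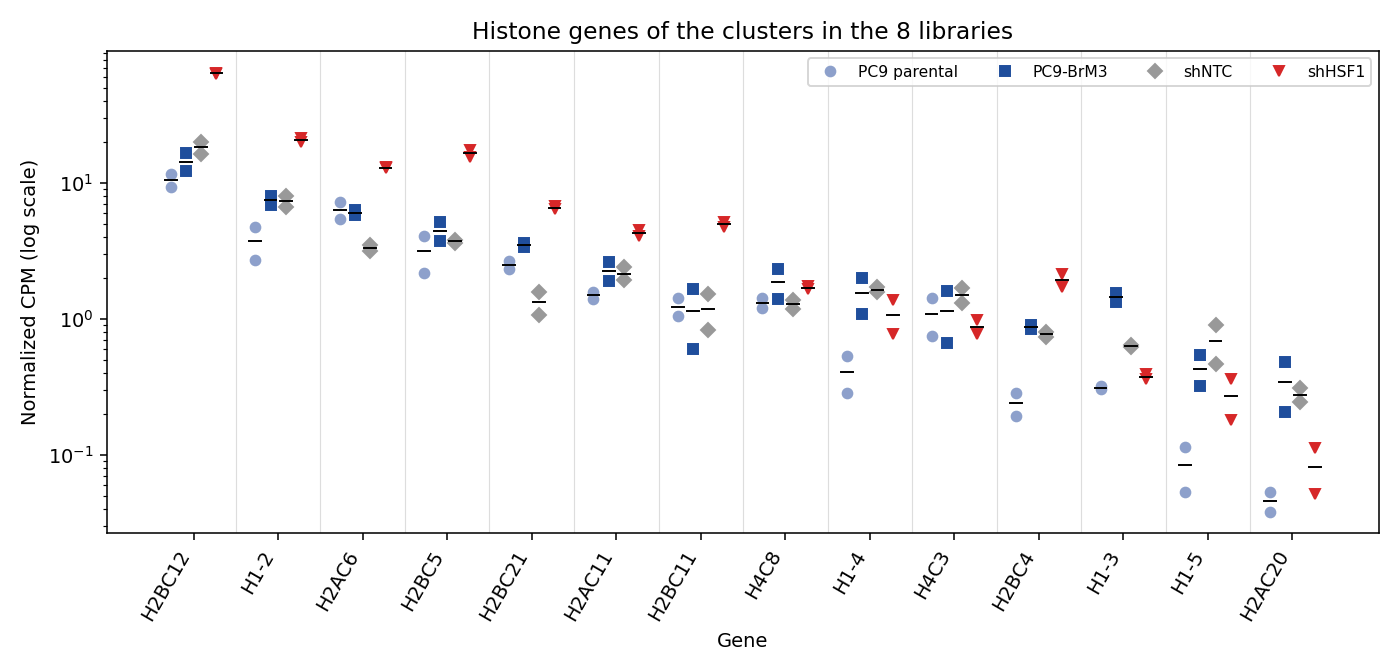
Normalized CPM (vertical, log scale) of the cluster histone genes tested in at least 1 comparison (horizontal), 1 symbol per library and a black bar at each group mean of 2 libraries. In 8 genes, H2BC12, H1-2, H2AC6, H2BC5, H2BC21, H2AC11, H2BC11 and H2BC4, both shHSF1 libraries lie above the other 6 libraries. Between shHSF1 and shNTC alone, the groups did not overlap, in either direction, for 73.2% of all tested genes.

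The 3 largest rises among the tested genes of the list were of H2B genes, whose product pairs with H2A in the nucleosome: H2BC21, H2BC5 and H2BC11. H2BC12 stood at 16.4 and 20.1 CPM in shNTC and at 63.8 and 64.9 CPM in shHSF1. The groups were far apart, and the log2 change was 1.85 ± 0.10 (SE; adjusted p = 6.52e-07). H2BC5 was at 3.61 and 3.84 CPM in shNTC and 15.5 and 17.5 CPM in shHSF1, a log2 change of 2.17 ± 0.13 (adjusted p = 1.13e-06). H2BC21 was at 1.07 and 1.58 CPM in shNTC and 6.78 and 6.39 CPM in shHSF1. Its 5.12-fold rise (log2 2.36 ± 0.20, adjusted p = 1.2e-05) was the largest among the tested histone genes of the list. H2BC11 and H2BC4 were lower in level and rose too. H2BC11 went from 0.83 and 1.52 CPM in shNTC to 5.16 and 4.76 CPM in shHSF1 (log2 2.14 ± 0.25, adjusted p = 9.94e-05). H2BC4 went from 0.81 and 0.73 CPM to 2.16 and 1.71 CPM (log2 1.35 ± 0.26, adjusted p = 0.00201).

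Among H2A genes of the clusters, H2AC6 and H2AC11 rose. H2AC6 was at 3.14 and 3.48 CPM in shNTC and 12.9 and 13.1 CPM in shHSF1, with nearly equal replicates within each group (log2 2.00 ± 0.13, adjusted p = 2.07e-06). H2AC11 was at 1.92 and 2.39 CPM in shNTC and 4.11 and 4.48 CPM in shHSF1 (log2 1.03 ± 0.18, adjusted p = 0.00134). H2AC20 was too low to be tested and pointed the other way, with 24 counts in shNTC and 6 in shHSF1. Without the filter on low counts its log2 change was -1.75 ± 0.72 (adjusted p = 0.0528).

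The linker histones, which bind the DNA between nucleosomes, did not move as one. H1-2 was at 8.01 and 6.64 CPM in shNTC and 20.1 and 21.6 CPM in shHSF1, and rose by 1.53 ± 0.12 on the log2 scale (adjusted p = 8.25e-06). H1-5 was at 0.91 and 0.46 CPM in shNTC and 0.18 and 0.36 CPM in shHSF1, a log2 change of -1.35 ± 0.48 (adjusted p = 0.0439). The fall of H1-5 rests on 61 and 20 counts: without shNTC replicate 1 it was -0.75 (adjusted p = 0.397) and without shHSF1 replicate 1 it was -0.92 (adjusted p = 0.247). H1-3 was at 0.64 and 0.63 CPM in shNTC and 0.36 and 0.39 CPM in shHSF1 (log2 -0.73 ± 0.35, adjusted p = 0.118). H1-4 was at 1.71 and 1.58 CPM against 0.77 and 1.37 CPM (log2 -0.61 ± 0.29, adjusted p = 0.121). Neither passed, although the groups did not overlap for either, as was the case for 73.2% of all tested genes.

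Neither tested H4 gene passed. H4C3 was at 1.30 and 1.69 CPM in shNTC and 0.77 and 0.98 CPM in shHSF1 (log2 -0.74 ± 0.28, adjusted p = 0.0518), and H4C8 at 1.18 and 1.39 against 1.75 and 1.65 CPM (log2 0.44 ± 0.23, adjusted p = 0.151). H3C4, the only H3 gene of the clusters that was matched, had 6 counts in shNTC and 14 in shHSF1 and was not tested. H2BC13 (8 and 9 counts) and H2BU1 (1 and 3 counts) were not tested either.

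**Figure D2:**
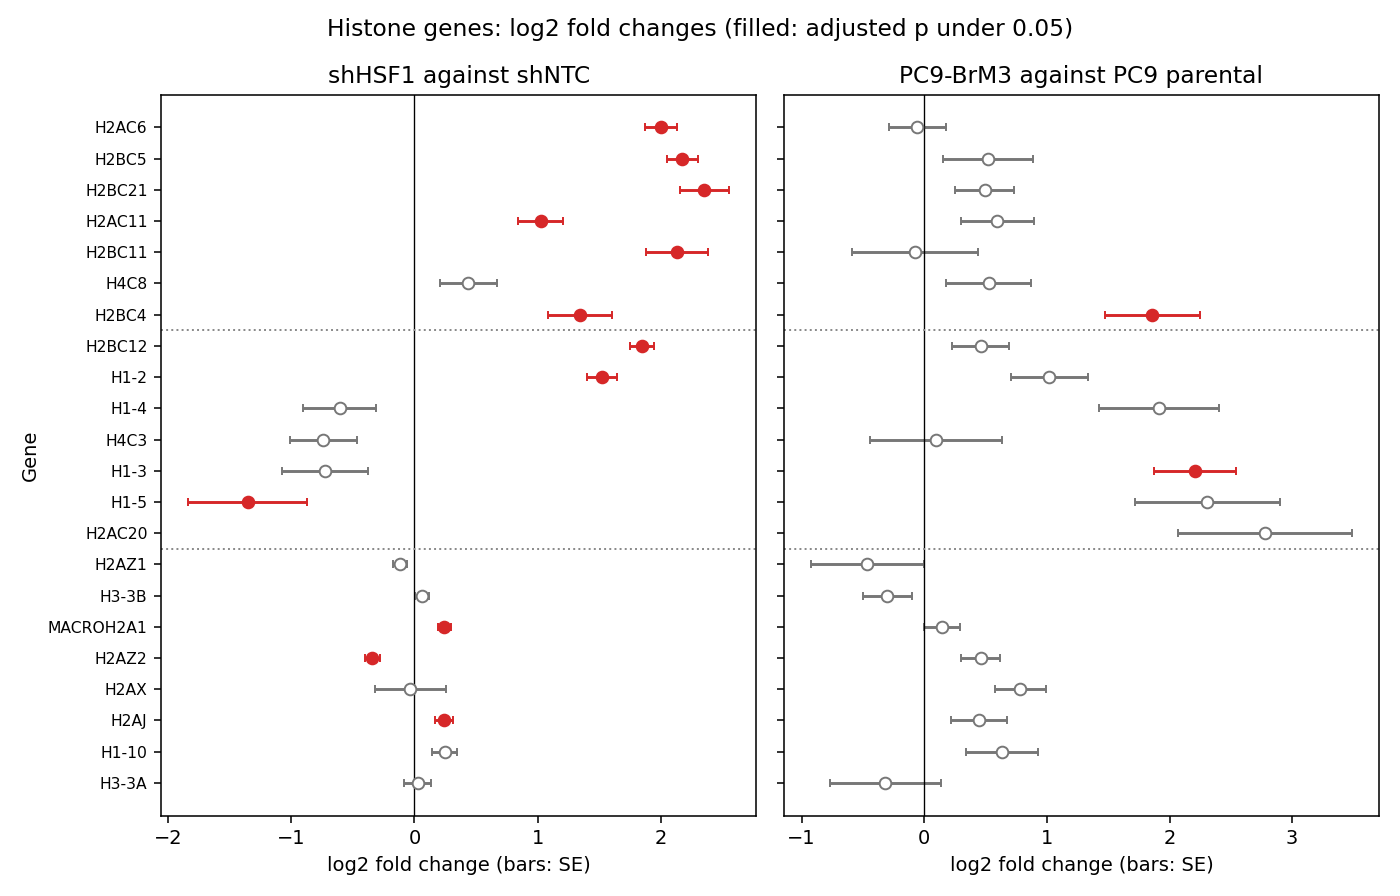
Log2 fold change (horizontal) with its standard error for each tested histone gene (vertical), for shHSF1 against shNTC on the left and PC9-BrM3 against PC9 parental on the right, from 4 libraries each. Dotted lines separate cluster genes with an annotated poly(A) signal (top), cluster genes without one (middle) and solitary genes (bottom), and on the left filled points above zero sit mostly in the top block.

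Among the listed cluster genes, those that rose mostly had models that reach beyond the usual histone mRNA. In the GRCh37 models of the count files, 9 cluster genes span 2223 to 14972 bases and 10 span 396 to 790 bases, with none between. Of the 8 long ones tested, 7 rose and none fell, with a median log2 change of 1.92, and H4C8 was the exception. Outside the list, H2BC15 and H2BC18 also have more than 1000 bases of exon and were not called (log2 -0.07 and -0.73). Both are low: H2BC15 had 50 counts in shNTC and 41 in shHSF1, and H2BC18 had 31 and 16. Of the 5 short ones tested, H1-2 rose and H1-5 fell, with a median of -0.73. H2AC6, for one, spans chr6:26124373-26139344 on the plus strand with 1668 bases of exon, H2BC5 spans chr6:26158349-26171577 on the plus strand with 898, and H1-2 is a single block of 732 bases at chr6:26055968-26056699 on the minus strand. This division by model length was made after the values were seen and has no test, and a long model also collects reads over more sequence. The 7 long genes that rose are H2A and H2B genes, while the 5 short ones tested are H1 and H4 genes. Model length and class thus largely go together in these genes.

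Annotated ends gave a similar division, which among tested genes differs from the first only in H2BC12 and so is no separate support. A poly(A) signal (AATAAA or ATTAAA, starting in the last 40 bases of a GENCODE v29 transcript) was found for 9 of the 19 cluster genes. Of the 7 of these that were tested, 6 rose, with a median log2 change of 2.00. Of the 6 tested genes without one, H1-2 and H2BC12 rose and H1-5 fell, with a median of -0.67. A missing signal says only that it is not in the annotated transcript, which for H2BC12 and several H1 genes stops near the coding end. H2BC12 has a model of 8547 bases in the count files and a short coding transcript of 381 bases in GENCODE v29. For small RNAs known to lack a poly(A) tail, 5 of 12 were matched, and the highest value of any, SCARNA10, was 1.41 CPM.

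Several of the genes that rose lie head to head, an H2A and an H2B gene reading outward from one shared promoter. The stretch between the RefSeq gene starts of 3 such pairs (GRCh38.p14) is shown because both genes of the first 2 pairs rose while the genes of the last pair differed. Capitals mark the TATA motif (TATAAA), the CCAAT box and an octamer (ATTTGCAT), each on either strand, with overlapping matches joined.
H2BC4 and H2AC6, chr6:26123927-26124171, minus strand: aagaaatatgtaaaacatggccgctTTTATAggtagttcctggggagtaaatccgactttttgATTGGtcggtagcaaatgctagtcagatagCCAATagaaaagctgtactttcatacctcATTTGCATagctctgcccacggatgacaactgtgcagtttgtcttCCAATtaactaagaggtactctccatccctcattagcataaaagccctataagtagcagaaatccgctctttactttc
H2BC11 and H2AC11, chr6:27132796-27133042, minus strand: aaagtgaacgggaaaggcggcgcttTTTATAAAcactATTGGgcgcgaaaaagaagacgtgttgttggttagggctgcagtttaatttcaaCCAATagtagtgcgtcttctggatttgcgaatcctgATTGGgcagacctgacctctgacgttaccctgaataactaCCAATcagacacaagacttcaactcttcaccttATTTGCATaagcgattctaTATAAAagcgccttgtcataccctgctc
H2BC21 and H2AC20, chr1:149886683-149886917, minus strand: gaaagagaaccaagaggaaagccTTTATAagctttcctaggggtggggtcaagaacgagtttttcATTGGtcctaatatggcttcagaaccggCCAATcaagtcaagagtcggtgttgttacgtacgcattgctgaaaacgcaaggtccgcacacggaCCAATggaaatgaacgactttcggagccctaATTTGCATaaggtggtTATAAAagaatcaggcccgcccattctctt
The strand is printed so that the H2A gene is on the left and the H2B gene on the right for all 3 pairs. H2BC4 and H2AC6 rose by 1.35 and 2.00 on the log2 scale and H2BC11 and H2AC11 by 2.14 and 1.03. H2BC21 rose by 2.36 while H2AC20, across a stretch of 235 bases, went from 15 and 9 counts to 2 and 4.

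Promoter windows of 300 bases (250 before the gene start and 50 after) were at hand for 27 of the matched genes, 18 of them in the clusters. The octamer, bound by POU2F1 (Oct-1) and known for its role in H2B promoters, was in 8 of the 18 and in 1.77% of all 35116 RefSeq windows. Among tested cluster genes with a window it was in 6 of the 8 that rose (H2AC6, H2AC11, H2BC4, H2BC11, H2BC12 and H2BC21), in none of the 3 not called and not in H1-5. The 6 are H2A and H2B genes, and those that did not rise are H1 and H4 genes. Octamer and class thus largely go together in these genes, and H2BC5 rose without the octamer. H2AC20 and H3C4, too low to be tested, carry the octamer as well and pointed in opposite directions. H2AC20 had 24 counts in shNTC and 6 in shHSF1, and H3C4 had 6 and 14. Windows of paired genes overlap, so these are not independent matches. TATAAA was in 12 of the 18 (11.5% of all windows) and CCAAT in 16 (34.6%). Of the inverted repeats that form a heat shock element, GAANNTTC was in none of the 18 (6.77% of all windows) and TTCNNGAA only in H1-5 (7.74%). With 18 windows, counts this small are near what the shares over all windows give. No match says only that these letters are not in that window.

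Replacement histones moved little. H2AZ2, the other gene for H2A.Z, was at 168 and 159 CPM in shNTC and 130 and 123 CPM in shHSF1, and fell by 0.34 ± 0.06 on the log2 scale (adjusted p = 0.00151). Its partner H2AZ1 was at 362 and 362 CPM against 319 and 336 CPM (log2 -0.12 ± 0.06, adjusted p = 0.109). MACROH2A1, whose product carries a large non-histone domain and is known from inactive chromatin, was at 212 and 220 CPM in shNTC and 249 and 256 CPM in shHSF1, and rose by 0.24 ± 0.05 (adjusted p = 0.00488). H2AJ, an H2A variant known from senescent and luminal cells, was at 36.0 and 37.2 against 43.1 and 41.9 CPM and rose by 0.24 ± 0.07 (adjusted p = 0.0219). The H2AJ call was lost without shNTC replicate 1 (adjusted p = 0.119), shNTC replicate 2 (0.072) or shHSF1 replicate 1 (0.101).

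The H3.3 genes were close to level. H3-3A was at 15.3 and 16.7 CPM in shNTC and 17.1 and 14.96 CPM in shHSF1 (log2 0.03 ± 0.11, adjusted p = 0.86), and H3-3B at 317 and 310 against 328 and 318 CPM (log2 0.06 ± 0.06, adjusted p = 0.377). H1-10, a solitary linker histone, was at 32.5 and 26.8 against 34.9 and 34.5 CPM (log2 0.25 ± 0.10, adjusted p = 0.0705). H2AX, the variant phosphorylated at DNA breaks, was at 83.6 and 52.6 CPM in shNTC and 59.2 and 72.4 CPM in shHSF1, so the groups overlapped (log2 -0.03 ± 0.29, adjusted p = 0.943). Its value turns on 1 library: it was 0.35 without shNTC replicate 1 (adjusted p = 0.0422) and -0.33 without shNTC replicate 2 (adjusted p = 0.0456).

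**Figure D3:**
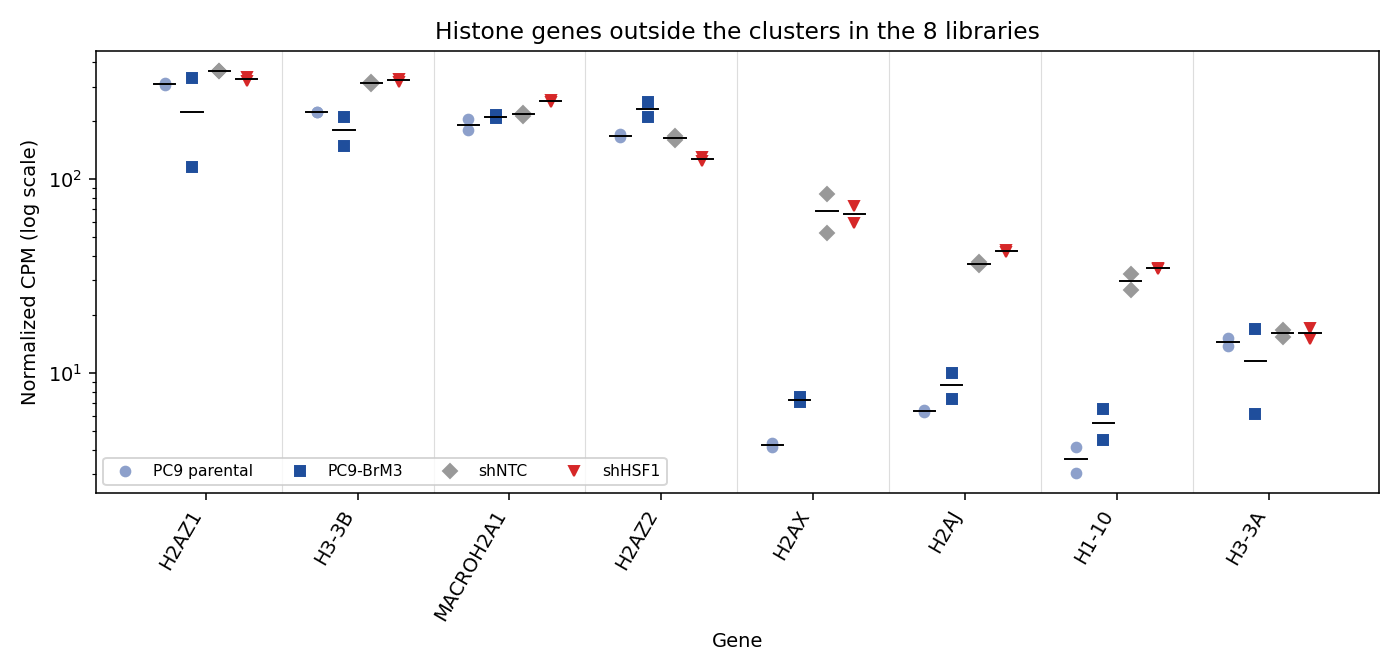
Normalized CPM (vertical, log scale) of the 8 tested solitary histone genes (horizontal), 1 symbol per library and a black bar at each group mean of 2 libraries. H2AX, H2AJ and H1-10 are higher in the 4 libraries with a hairpin than in the 4 without, and PC9-BrM3 replicate 2 is low for H2AZ1, H3-3A and H3-3B.

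Genes that make and handle histones went down or were not called, with a few small exceptions. Over all tested genes 23.5% fell and 22.2% rose. Of 15 genes for histone gene transcription and mRNA 3′ end processing, 9 fell and none rose by edgeR (0 at an unadjusted p under 0.05, 0 by DESeq2; median log2 change -0.30, against 0.01 over all tested genes). ERI1, an exonuclease that trims the histone mRNA end, fell from 34.1 to 12.96 CPM on average (log2 -1.38 ± 0.11, adjusted p = 7.72e-06). POU2F1 fell by 0.72 ± 0.07 (adjusted p = 1.86e-05) and CASP8AP2 (FLASH), which brings the processing complex to the stem-loop, by 0.68 ± 0.11 (adjusted p = 5.25e-04). SLBP fell by 0.34 ± 0.07 (adjusted p = 0.00406), from 100.7 to 78.6 CPM on average. NPAT, the cyclin E-CDK2 target that activates cluster genes, fell by 0.25 ± 0.06 (adjusted p = 0.00811, and 0.0505 without shHSF1 replicate 1), and CSTF2 by 0.41 ± 0.07 (adjusted p = 0.00136).

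Of 25 histone chaperones and exchange factors 12 fell and 3 rose (median -0.18), where 23.5% of all tested genes fell and 22.2% rose. ASF1A, which hands H3-H4 to the assembly factors, fell by 1.71 ± 0.08 (adjusted p = 3.13e-07) and CHAF1B, a subunit of CAF-1, by 0.99 ± 0.09 (adjusted p = 2.48e-05). ANP32E, which removes H2A.Z, fell by 1.34 ± 0.07 (adjusted p = 8.49e-07) and SRCAP, which deposits it, by 0.69 ± 0.06 (adjusted p = 8.77e-06). The 3 that rose were DAXX (0.28), TONSL (0.33) and UBN1 (0.20). The UBN1 call was lost without shNTC replicate 2 or either shHSF1 replicate, and the TONSL call without shNTC replicate 1 or shHSF1 replicate 2.

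The S phase genes went the same way. Of 19 matched S phase genes 16 fell and 1 rose (median -0.54), where 23.5% of all tested genes fell and 22.2% rose. MCM5 fell by 1.33 ± 0.10, RRM2 by 0.93 ± 0.07, MCM4 by 0.60 ± 0.07 and PCNA, the sliding clamp, by 0.57 ± 0.07 (adjusted p at most 1.67e-04). CCNE1 rose by 0.27 ± 0.10 (adjusted p = 0.0494), a call lost without shNTC replicate 1, shNTC replicate 2 or shHSF1 replicate 2. The part of these S phase changes in the histone values was not tested, and in bulk RNA fewer cells in a state and less RNA per cell cannot be told apart.

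**Figure D4:**
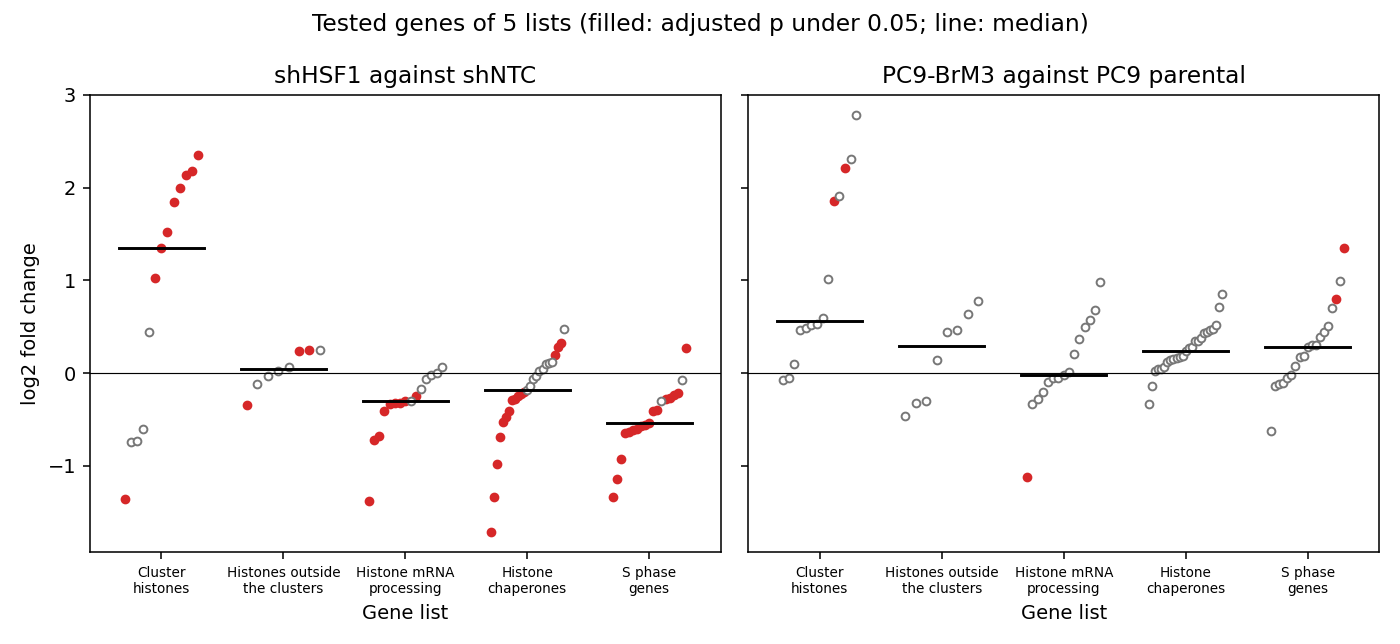
Log2 fold change (vertical) of each tested gene of 5 lists (horizontal), for shHSF1 against shNTC on the left and PC9-BrM3 against PC9 parental on the right, with genes in order of value and a line at the list's median. On the left the median of the cluster histones is 1.34 and that of the S phase genes -0.54.

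Other histone genes outside the list of 38 gave few values. Of 47 symbols 24 were matched and 8 tested in the knockdown. H2AW, an H2A gene outside the main cluster, rose from 0.88 to 1.75 CPM on average (log2 0.98 ± 0.31, adjusted p = 0.0248). The H2AW call was lost without shNTC replicate 2 or shHSF1 replicate 2.

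Between PC9-BrM3 and PC9 parental, 2 of 22 tested histone genes rose, the linker gene H1-3 and H2BC4, and none fell by edgeR (0 at an unadjusted p under 0.05, 0 by DESeq2). Among all 17372 genes tested 7.14% were called, 3.87% higher and 3.27% lower. H1-3 was at 0.32 and 0.31 CPM in PC9 parental and 1.56 and 1.32 CPM in PC9-BrM3 (log2 2.21 ± 0.34, adjusted p = 0.021). H2BC4 was at 0.19 and 0.29 CPM against 0.84 and 0.90 CPM (log2 1.86 ± 0.39, adjusted p = 0.0474). Both genes were far apart between the groups, and both calls were lost without either PC9 parental replicate (adjusted p 0.175 and 0.166 for H1-3, 0.501 and 0.269 for H2BC4).

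The other cluster linker genes had higher values in PC9-BrM3 that did not pass. H1-4 was at 0.28 and 0.54 CPM in PC9 parental and 1.09 and 2.01 CPM in PC9-BrM3 (log2 1.91 ± 0.49, adjusted p = 0.0795), and H1-5 at 0.05 and 0.11 against 0.32 and 0.54 CPM (log2 2.31 ± 0.59, adjusted p = 0.0798). H1-2 was at 2.73 and 4.71 against 7.998 and 6.95 CPM (log2 1.02 ± 0.31, adjusted p = 0.118). For these genes the 2 groups did not overlap, as for 59% of all tested genes. H2AC20, with 5 counts in PC9 parental and 27 in PC9-BrM3, had a log2 difference of 2.78 ± 0.71 (adjusted p = 0.0798).

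The 5 genes that rose most in the knockdown gave smaller values here. H2BC21 was at 2.69 and 2.33 CPM in PC9 parental and 3.40 and 3.64 CPM in PC9-BrM3 (log2 0.49 ± 0.24, adjusted p = 0.272). H2BC5 was at 2.19 and 4.07 against 3.74 and 5.20 CPM and H2AC6 at 5.45 and 7.25 against 5.82 and 6.31 CPM, with overlapping groups in both. H2BC11 also overlapped, at 1.42 and 1.05 against 1.67 and 0.60 CPM, and H2BC12 was at 9.36 and 11.6 against 12.2 and 16.5 CPM (log2 0.46 ± 0.23, adjusted p = 0.277). The cluster genes summed to 28.8 and 36.2 CPM in PC9 parental and 44.8 and 49.4 CPM in PC9-BrM3, a ratio of 1.45 between the means. Whether the change of any gene differed between the 2 comparisons was not tested.

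Solitary genes showed how far the 2 PC9-BrM3 libraries lay apart. H2AZ1 was at 307 and 312 CPM in PC9 parental but at 330 and 115 CPM in PC9-BrM3, and H3-3A at 13.8 and 15.1 against 16.8 and 6.13 CPM. H3-3B was at 221 and 222 against 208 and 148 CPM, again with replicate 2 low. H2AZ2 was at 170 and 165 against 250 and 208 CPM (log2 0.46 ± 0.16, adjusted p = 0.148), and H2AX at 4.37 and 4.15 against 7.51 and 7.07 CPM (log2 0.78 ± 0.21, adjusted p = 0.0849). The values of several histone genes turned on which PC9-BrM3 library was kept. Without replicate 1 the log2 difference was -1.42 for H2AZ1, -1.23 for H3-3A, -1.03 for H2BC11 and -0.57 for H3-3B. Without replicate 2 it was 0.089 for H2AZ1, 0.21 for H3-3A and 0.43 for H2BC11. Without either PC9 parental replicate none was called. A fit with 1 library in a group assumes that it varies like the others.

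Of the handling genes, LSM11 of the U7 particle, which cuts the stem-loop mRNA, was lower in PC9-BrM3 (16.4 against 7.52 CPM on average, log2 -1.12 ± 0.22, adjusted p = 0.0432). LSM11 was 1 of 15 processing genes called, where 7.14% of all tested genes were called. SLBP was at 68.4 against 109.2 CPM (log2 0.68 ± 0.15, adjusted p = 0.0581). NPAT had a log2 difference of 0.50 ± 0.14 (adjusted p = 0.101) and CASP8AP2 of 0.57 ± 0.22 (adjusted p = 0.184). None of the 25 chaperones was called by edgeR (3 higher and 0 lower at an unadjusted p under 0.05, 1 higher and 0 lower by DESeq2). Calls appeared when either PC9-BrM3 replicate was left out, in fits where calls over all genes rose as well. Of 19 S phase genes CCNE2 (1.34 ± 0.20, adjusted p = 0.0191) and RRM2 (0.80 ± 0.16, adjusted p = 0.0432) rose. More S phase genes were called when either PC9-BrM3 replicate was left out, where calls over all genes rose as well. Without replicate 1 some of these S phase genes were lower. The calls of LSM11, CCNE2 and RRM2 were lost without either PC9 parental replicate.

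Set side by side without a test, PC9-BrM3 without a hairpin and PC9-BrM3 with shNTC and doxycycline differed most in 3 solitary genes. H2AX averaged 7.29 CPM without a hairpin and 68.1 CPM with shNTC, a ratio of 9.34. H1-10 gave a ratio of 5.37 and H2AJ of 4.22. The median ratio over 21 histone genes with at least 80 counts was 1.03, and the lowest values were 0.377 for H2BC21 and 0.439 for H1-3. Transcript GC content was 66.4% for H2AX, 68.6% for H1-10 and 42.6% for H2AJ, and its part in these ratios was not tested. Lane, hairpin, puromycin and doxycycline cannot be told apart between these sets. Both shHSF1 libraries also lay above both PC9-BrM3 libraries without a hairpin for H2BC12, H2BC5, H2BC21, H2BC11, H2BC4, H2AC6, H2AC11 and H1-2. These are the cluster genes called higher in the knockdown, and the share of all genes for which this holds was not counted.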

How the data were processed

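The 8 deposited tables hold unnormalized counts of reads for each Ensembl gene ID (GRCh37). They were made with featureCounts 1.6.1, reverse-stranded and over exons, per the file headers; reads mapping to several places were not requested, which can lower near-identical histone genes. Trim Galore, HISAT2 and DESeq2 are named in the submitters' processing notes. Poly(A) selection is not given in the sources used here.

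Groups came from the titles. For a comparison, its 4 libraries alone were fitted in R 4.3.3 with edgeR 4.0.16, after TMM scaling and a filter on low genes (filterByExpr, at least 10 counts and a total of 15), by the robust quasi-likelihood F test with Benjamini-Hochberg adjustment over all tested genes at 0.05. Standard errors are the log2 fold change over the root of F. Levels are CPM on TMM-scaled totals of all 8 libraries. The script was tested on simulated data. No replicate pair looked like a copy (chi-square per degree of freedom 10.9 to 301.5). The members and lists were chosen with earlier results of these data known. Named genes are the members, HSF1, NPAT, CASP8AP2 and SLBP, and up to 4 called genes per list and direction with the smallest p; a named result of the other histone genes is not reported here. Alternatives were DESeq2 1.42.0, upper-quartile factors, no filter, all 8 libraries, a replicate block and leaving out each library. Symbols came from gene tables (26 by current symbol, H2BU1 by RefSeq synonym, H2AC18 by its GENCODE v29 name). Sequences are from RefSeq (GRCh38.p14) and GENCODE v29 (GRCh38), and positions of gene models are those of the files.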

Additional observations from a re-analysis of the deposited data

How the results depend on the processing

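The rises of H2BC12, H2BC5, H2BC21, H2BC11, H2BC4, H2AC6, H2AC11 and H1-2 kept their direction and call under all 9 alternatives run for each. The histone genes called in the knockdown, 12, numbered 8 to 14 over the alternatives (10 to 13 without 1 library). With all 8 libraries in 1 fit, the calls of H2AZ2 (adjusted p = 0.0543), MACROH2A1 (0.166), H2AJ (0.354) and H1-5 (0.114) were lost, as were those of NPAT (0.0822), SLBP (0.0603) and SRCAP (0.067). Processing genes that fell then numbered 5 (9 in the report) and chaperones 5 (12) with 0 that rose (3); upper-quartile factors gave 5 chaperones that rose, and leaving out shHSF1 replicate 2 gave 1. DESeq2 also lost H1-5 (0.166), H2AW (0.069) and CCNE1 (0.0518).

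Over all genes the knockdown gave 7701 calls, 3873 with all 8 libraries and 1749 when a change of at least 2-fold was asked for as well, a rule chosen after seeing the data. Upper-quartile factors split the calls into 4592 higher and 3387 lower, against 3739 and 3962, and shifted the median change by 0.07 (log2). H2AX changed sign with them (0.036), and ranged from -0.33 to 0.35 without 1 library. H3-3A then ranged from -0.073 to 0.12 and H2BC15 from -0.683 to 0.379.

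In the subline comparison all genes gave 1240 calls, 2203 with DESeq2, 3159 without the filter, 3813 with all 8 libraries, and 402 to 9228 without 1 library (402 without PC9 parental replicate 1, 9228 without PC9-BrM3 replicate 1). Histone genes called numbered 2, 4 with DESeq2, 6 without the filter, 8 with all 8 libraries and 0 to 15 without 1 library. Values that changed sign without 1 library ranged from -0.27 to 0.15 for H2AC6, -1.42 to 0.089 for H2AZ1, -1.03 to 0.43 for H2BC11, -1.23 to 0.21 for H3-3A and -0.72 to 0.62 for H4C3. The causes were not tested.

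Replicate numbers did not pair the samples: deviations of same-numbered libraries correlated at 0.046 (knockdown) and -0.034 (subline). A replicate block gave 13 histone genes and 8015 genes called in the knockdown, and 2 and 1328 in the subline comparison. Under it H1-5 (adjusted p = 0.0554), H2BC4 (0.0521) and RRM2 (0.0543, both in the subline comparison) lost their call, and H1-10 (0.0351) and H4C3 (0.0446) in the knockdown and H1-4 (0.0275) in the subline comparison passed. Low counts limit H1-5, H2AC20, H3C4, H2BC13 and H2BU1.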
